A study of Homo sapiens with 26 samples.

Results

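The peaks described here are the FOXA1 binding sites that lay at promoters of protein-coding genes. A peak of the hg19 FOXA1 list on chromosomes 1 to 22 was a promoter peak when its midpoint lay within 1000 bp of the start of a protein_coding transcript in GENCODE release 44 lifted to GRCh37. Of 153247 FOXA1 peaks on these chromosomes, 4352 met this rule, or 2.84% (95% Wilson interval 2.76 to 2.92%). The space that the rule covers, called promoter space below, was 2.58% of known bases, so the share of peaks was near the share of the genome. FOXA1 had 62.8 peak midpoints per Mb in promoter space and 57.1 per Mb over the genome. The promoter peaks lay at starts of 3094 of 18886 protein-coding genes. The choice used positions only, and not scores, sequences or overlaps with other peak lists. Sequence and overlap can still vary with distance from a start, so they are not independent of the choice.

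The study measured binding by chromatin immunoprecipitation and sequencing (ChIP-seq) in BJ fibroblasts, a human foreskin fibroblast line, after 48 h of ectopic expression of a HALO-tagged protein, using an antibody to the HALO tag. The constructs compared here were FOXA1, the variants FOXA1dbd, FOXA1nhaa and FOXA1rraa, and HNF4A, and all of them carried the tag. The labels name the variants without saying which residues differ. Each construct had 2 ChIP and 2 input libraries but contributed 1 peak list, so the lists have no replicate error. Intervals below cover counting error over peaks, starts or genes only, and peaks of 1 list are not replicates, so comparisons carry no p-value. Every list was made at an unstated read depth, and each peak's score is the authors' own. The FOXA1rraa list holds 22823 rows (32.4% of its rows on these chromosomes) with the coordinates and name of a FOXA1 row, so overlap with it was also counted without them. Peak lists give no expression and cannot check the cell type.

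FOXA1 is a forkhead transcription factor and a pioneer factor, able to bind its target sequence in compacted chromatin, and is best known from liver, breast and prostate, where it binds mostly enhancers. HNF4A is a nuclear receptor that acts with FOXA proteins in liver. Mammalian promoters fall broadly into CpG-rich promoters, typical of broadly expressed genes, and CpG-poor promoters, typical of tissue-restricted genes. Many genes have several annotated starts, of which 1 is tagged as canonical.

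The sequences below are shown because they let the forkhead core be seen in its setting at high-scoring promoter peaks. The first 6 below are high-scoring promoter peaks with a forkhead core (TATTTAC or TGTTTAC on either strand) in the central 200 bp. Their 60 bp around the core lay outside annotated exons. The core is in capitals, and each sequence is written 5′ to 3′ on the strand that reads the core.
DUSP11: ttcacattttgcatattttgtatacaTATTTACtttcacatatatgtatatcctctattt
ZCCHC2: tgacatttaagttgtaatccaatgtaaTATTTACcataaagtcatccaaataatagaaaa
SAXO2: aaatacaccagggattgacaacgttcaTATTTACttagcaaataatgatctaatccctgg
OR2F2: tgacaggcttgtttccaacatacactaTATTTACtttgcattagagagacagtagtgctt
FAT4: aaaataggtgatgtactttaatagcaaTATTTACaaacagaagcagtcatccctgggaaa
FRYL: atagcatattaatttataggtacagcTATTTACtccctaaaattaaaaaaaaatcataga
Under the same exon rule, the next pair are high-scoring promoter peaks without such a core. They are shown as 60 bp around the midpoint on the plus strand. Some promoter peaks with higher scores are not shown.
WDR43: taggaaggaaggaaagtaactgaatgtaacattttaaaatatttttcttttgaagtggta
CELF1: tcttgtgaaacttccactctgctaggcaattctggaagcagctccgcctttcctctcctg

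All positions are in GRCh37/hg19. The DUSP11 window is chr2:74007479-74007538 on the plus strand, and its peak midpoint lay 288 bp upstream of a start of DUSP11, an RNA phosphatase gene, between annotated genes. The ZCCHC2 window is chr18:60194745-60194804 on the minus strand, in an intron, with the midpoint 646 bp downstream of a start that is itself 3864 bp from the gene's canonical start. The SAXO2 window is chr15:82555886-82555945 on the minus strand, in an intron, with the peak midpoint 784 bp downstream of a start at a CpG-rich promoter. The OR2F2 window is chr7:143632113-143632172 on the minus strand, with the peak midpoint 109 bp upstream of the canonical start of this olfactory receptor gene. The FAT4 window is chr4:126316004-126316063 on the minus strand, in an intron of this atypical cadherin gene. The FRYL window is chr4:48682228-48682287 on the plus strand, also intronic. The WDR43 window is chr2:29127596-29127655, in an intron of a ribosome biogenesis gene. The CELF1 window is chr11:47509795-47509854, in an intron of a gene for an RNA-binding splicing regulator. All 6 cores were TATTTAC. The nearest start was not the canonical one for 5 of these 6 peaks, although at DUSP11 and SAXO2 it lay only 18 and 26 bp from it.

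Promoter peaks were about as strong as the rest of the FOXA1 list. Their median score was 121 (quartiles 79.75 and 189), against 124 for the 148895 other peaks (quartiles 81 and 197). Their median width was 293 bp, against 302 bp. The share of peaks at promoters was 2.98% in the lowest score quintile (2.79 to 3.18%) and 2.67% in the highest (2.49 to 2.86%), a small difference whose intervals overlap. At the edge of the rule, 95 peaks lay within the last 20 bp inside the 1000 bp limit, with a median score of 128, and 106 peaks lay within the first 20 bp outside it, with a median of 104. The down-sampled FOXA1 list kept 1099 of the promoter peaks (25.3%), near the 24.6% it kept of all FOXA1 peaks.

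Among the 10 highest-scoring promoter peaks were those with nearest starts of WDR43, DUSP11, ZCCHC2, CHCHD7, ANXA13, MRE11, SAXO2, CELF1 and GCLC, with scores from 683 to 609. MRE11 encodes a DNA repair nuclease and GCLC an enzyme of glutathione synthesis. The nearest start was the canonical one for 1 of the 10, that of the annexin gene ANXA13, and at DUSP11, SAXO2 and MRE11 it lay 18, 26 and 32 bp from the canonical start. At CELF1 the peak lay 741 bp downstream of a start 64118 bp from the canonical start, and the nearest start at GCLC lay 34653 bp from its canonical start, both far inside the gene. All 10 were overlapped by FOXA1rraa (9 without its FOXA1 rows), 9 by FOXA1nhaa, 6 by FOXA1dbd and 1, at DUSP11, by HNF4A. Over all FOXA1 peaks these lists overlapped 40.1%, 40.1%, 17.5% and 1.7%, and in the highest score quintile of promoter peaks 74.9%, 68.8%, 38.1% and 4.77%.

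FOXA1 promoter peaks lay mainly at CpG-poor starts, the opposite of HNF4A promoter peaks. A start was called high CpG where the 500 bp to each side had a CpG observed/expected ratio of at least 0.75 and a GC content of at least 55%, and low CpG where the ratio was under 0.48. Of the FOXA1 promoter peaks, 2891 (66.4%, 65.0 to 67.8%) had a low-CpG nearest start and 649 (14.9%, 13.9 to 16%) a high-CpG one, whereas 36.9% of all 75619 distinct starts were low CpG and 34.2% high CpG. The contrast was smaller by space than by number of starts. Of 69.16 Mb of promoter space, 37.31 Mb lay nearest a low-CpG start and 16.33 Mb nearest a high-CpG one. By the same rule 11486 of 37867 HNF4A peaks were promoter peaks, or 30.3%, and 58.0% of those had a high-CpG nearest start and 11.1% a low-CpG one. The promoter shares of the FOXA1 variants were close to that of FOXA1, at 3.19% for FOXA1dbd, 2.73% for FOXA1nhaa and 2.64% for FOXA1rraa. The down-sampled FOXA1 list, which has as many rows as the HNF4A list, had 2.92% of its peaks at promoters.

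**Figure D1:**
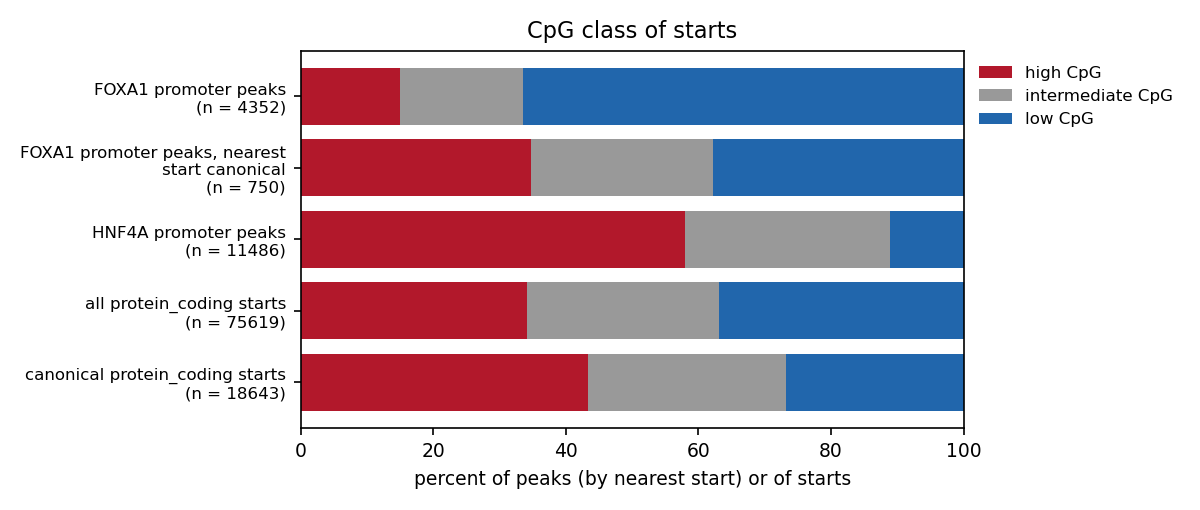
CpG class of the nearest start of FOXA1 and HNF4A promoter peaks, and of annotated starts, as percent of each set (x axis). Bars are stacked to 100%, and the low-CpG class makes up 66.4% of FOXA1 promoter peaks against 11.1% of HNF4A promoter peaks.

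Many of the starts at FOXA1 promoter peaks were alternative starts within genes. The nearest start was canonical for 750 promoter peaks (17.2%, 16.1 to 18.4%), against 24.7% of all distinct starts. A canonical start lay within 1000 bp of 1418 promoter peaks (32.6%), against 83.4% of HNF4A promoter peaks. Of the 69.16 Mb of promoter space, 35.1 Mb lay that near a canonical start. Starts can lie close together, so shares of starts differ from shares of space. For 2341 promoter peaks (53.8%) the nearest start lay over 1000 bp downstream of its gene's canonical start, at a median of 33598 bp, and 22.9% of all starts lay so. Among promoter peaks whose nearest start was canonical, 34.8% were at high-CpG starts, against 43.3% of canonical starts. Most promoter peaks, 3187 or 73.2%, had their midpoint in an intron, 9.19% lay between genes and 2.62% in a coding exon. The corresponding shares of the other FOXA1 peaks were 70.8%, 22.4% and 0.705%. Annotated starts differ in their evidence: 29.2% of promoter peaks had a nearest start from a transcript of support level 1, the best supported, against 35.9% of all starts. Whether the alternative starts are used in these fibroblasts cannot be read from peak lists.

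Few of the peaks lay at the start itself. There were 333 promoter peaks (7.65%, 6.90 to 8.48%) with their midpoint within 100 bp of the start, against 31.4% of HNF4A promoter peaks, and the median distance was 552.5 bp against 196 bp. The 100 bp are a small part of the 1000 bp that the rule allows, so a low share alone shows no depletion. The distance differed by promoter type, with a median of 748 bp at high-CpG starts, 635 bp at intermediate starts and 473 bp at low-CpG starts. At high-CpG starts 11 of 649 peaks (1.70%) lay within 100 bp, against 9.06% at low-CpG starts.

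Around canonical starts this was a gap in FOXA1 peaks at high-CpG and intermediate promoters and a rise in HNF4A peaks at the same place. In the 250 bp downstream of 8071 high-CpG canonical starts there was 1 FOXA1 midpoint, or 0.124 per 1000 starts (exact Poisson interval 0.00314 to 0.690), and there were 1605 HNF4A midpoints, or 199 per 1000 starts. FOXA1 rose with distance to 39.3 per 1000 starts (35.1 to 43.9) between 1500 and 1750 bp downstream, beyond the promoter limit. At 5567 intermediate canonical starts FOXA1 had 1.26 midpoints per 1000 starts (0.506 to 2.59) in the 250 bp downstream, where HNF4A had 157. Between 1000 and 1250 bp downstream of these starts FOXA1 had 28.4. At 5005 low-CpG canonical starts FOXA1 had 15.4 midpoints per 1000 starts (12.1 to 19.2) in the 250 bp upstream of the start and 6.79 (4.70 to 9.49) in the 250 bp downstream. HNF4A had 21.6 and 14.0 in the same bins. At low-CpG starts FOXA1 peaks were thus present next to the start. The HNF4A list is shorter, so its levels are not compared with those of FOXA1 here, only their course with distance.

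**Figure D2:**
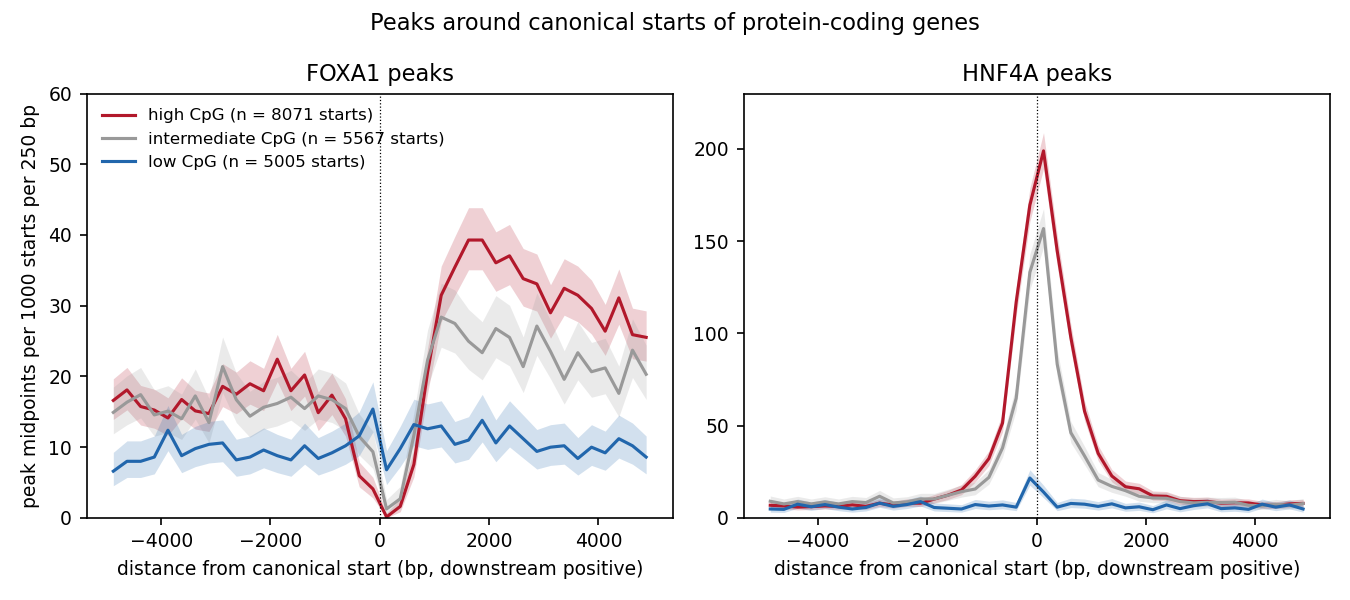
Peak midpoints per 1000 canonical starts in bins of 250 bp (y axis) by distance from the start in bp (x axis), for FOXA1 (left) and HNF4A (right), by CpG class of the start, with exact Poisson intervals as bands. The panels have different y scales, and at high-CpG starts the FOXA1 line falls to 0.124 just downstream of the start, where the HNF4A line reaches 199.

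The order of the promoter classes turned when windows of like GC content were compared. Counted in 200 bp windows, FOXA1 midpoints were at 77.4 per Mb in low-CpG promoter space (74.6 to 80.3), 52.5 in intermediate and 39.1 in high-CpG promoter space (36.2 to 42.3), against 56.9 per Mb away from promoters. HNF4A had 34.4, 228 and 407 per Mb in the same 3 classes and 10.1 away from promoters. In windows of 30 to 35% GC, FOXA1 had 401 midpoints per Mb in high-CpG promoters (340 to 471), 320 in intermediate, 257 in low-CpG promoters (241 to 273) and 127 away from promoters. In windows of 50 to 55% GC the values were 21.0, 16.1, 4.58 and 1.35 per Mb. Most high-CpG promoter space was GC-rich: 10.65 of its 16.33 Mb were windows of at least 55% GC, where FOXA1 had 3.38 midpoints per Mb. The median GC content of the central 200 bp was 34% for promoter peaks and 32.5% for other FOXA1 peaks, against 63% at all starts. Even the peaks at high-CpG starts had a median of 37.5%. Whether the GC dependence comes from binding or from library preparation was not tested, and read depth by GC content is not known for these lists.

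**Figure D3:**
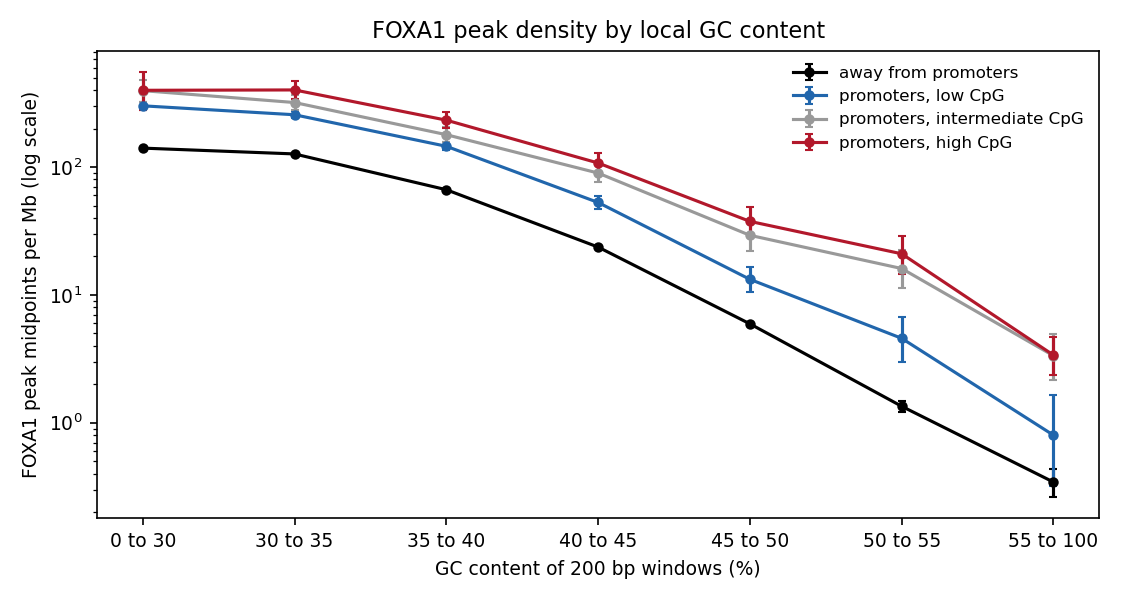
FOXA1 peak midpoints per Mb (y axis, log scale) by GC content of 200 bp windows (x axis), away from promoters and in promoter space of each CpG class, with exact Poisson intervals. Within each GC range up to 55% the high-CpG promoter points lie highest and the points away from promoters lowest, as at 30 to 35% GC (401 against 127 per Mb).

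Space near alternative starts held more FOXA1 peaks than space near canonical starts. Promoter windows within 1000 bp of a canonical start had 40.2 midpoints per Mb (38.1 to 42.4) and other promoter windows 86.1 (83.0 to 89.2). HNF4A had the reverse order, at 273 and 55.8 per Mb. Within low-CpG promoters FOXA1 had 44.6 per Mb near canonical starts (40.6 to 48.9) and 89.8 elsewhere (86.3 to 93.5). The difference was therefore present within a single CpG class, although GC content was not held equal in this comparison.

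The forkhead core was no more frequent at promoter peaks than elsewhere in the list. It was in the central 200 bp of 819 promoter peaks (18.8%, 17.7 to 20.01%), against 18.2% of all FOXA1 peaks. Windows of the same length at all starts held it in 2.76% of cases. The core letters read backwards, which keep the base composition, were in 17.8% of promoter peaks and 19.7% of all FOXA1 peaks, so the exact core was hardly more frequent than its reversed letters. At high-CpG starts the core was in 18.6% of peaks (15.8 to 21.8%) and the reversed letters in 14.2% (11.7 to 17.1%). By score, the core share ran between 16.6% and 20.5% over the quintiles, without a steady order.

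Several motifs typical of core promoters were rarer in FOXA1 promoter peaks than in windows at starts, but more frequent than over all FOXA1 peaks. The start windows had a median GC content of 63%, against 34% for promoter peaks, and GC content was not held equal here. The GC box bound by SP1-family factors (GGGCGG, both strands for all motifs here) was in 82 promoter peaks (1.88%), against 0.286% of all FOXA1 peaks and 43.6% of start windows. The ETS site CCGGAAG was in 23 (0.529%), against 0.118% and 9.50%. The E-box CACGTG was in 1.75%, against 1.2% and 5.12%. The NRF1 core was in 2 promoter peaks, against 0.00587% of all FOXA1 peaks and 1.46% of start windows. TATAAA, by contrast, was in 29.6% of promoter peaks, against 34.5% of all FOXA1 peaks and 5.75% of start windows. CCAAT (29.3%, against 29.6%) and the TEAD letters GGAATG (11.8%, against 11.9%) were near their shares over all FOXA1 peaks. The HNF4 core CAAAGTCCA was in 10 promoter peaks (0.230%, against 0.262%).

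The FOXA1 variants overlapped promoter peaks about as often as, or slightly more often than, other FOXA1 peaks. FOXA1nhaa overlapped 1967 promoter peaks (45.2%), against 40.1% of all FOXA1 peaks, and the difference from the peaks away from promoters was 5.25 percentage points (Newcombe interval 3.76 to 6.75). FOXA1dbd overlapped 866 (19.9%), against 17.5%, with a difference of 2.46 points (1.28 to 3.69). FOXA1rraa overlapped 1756 (40.3%), against 40.1%, with a difference of 0.25 points (-1.22 to 1.74). Without the rows it shares with FOXA1, the FOXA1rraa share was 27.6%, against 25.2%, and the difference 2.43 points (1.11 to 3.80). HNF4A overlapped 226 promoter peaks (5.19%), against 1.7%, with a difference of 3.60 points (2.98 to 4.30). HNF4A peaks were themselves denser in promoter space (166 per Mb) than away from promoters (10.1 per Mb), and this difference in overlap was not adjusted for density. Higher scores went with more overlap by every FOXA1 variant, at promoters and away from them. Among promoter peaks FOXA1nhaa rose from 31.8% in the lowest score quintile to 68.8% in the highest. FOXA1rraa rose from 20.6% to 74.9% and FOXA1dbd from 8.76% to 38.1%. The other FOXA1 peaks had the same course, at 25.45% and 62.98% for FOXA1nhaa, 20.5% and 72.0% for FOXA1rraa, and 9.52% and 31.8% for FOXA1dbd. HNF4A had no such trend at promoter peaks, with 4.38% and 4.77%. Away from promoters HNF4A had 1.35% and 1.90%. Peaks also widened with score, from a median of 193 bp to 497 bp over the quintiles of the whole list. Whether width accounts for the rise in overlap by at least 1 bp was not tested.

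Overlap differed with promoter type, and not in the same direction for every construct. FOXA1nhaa overlapped 38.2% of promoter peaks at high-CpG starts and 48.95% at low-CpG starts, a difference of -10.7 points (-14.8 to -6.52). FOXA1rraa without the FOXA1 rows differed by -10.2 points (-13.6 to -6.53). FOXA1dbd had 20.2% and 19.5%, a difference of 0.68 points (-2.59 to 4.23). HNF4A ran the other way, with 10.9% at high-CpG starts and 3.18% at low-CpG starts. HNF4A peaks were themselves denser in high-CpG promoter space, as given above. Promoter peaks at high-CpG starts had lower scores (median 105 against 128), so the classes were also compared within score. Above the list's median score, FOXA1nhaa overlapped 49.4% of peaks at high-CpG starts (43.4 to 55.5%) and 60.2% at low-CpG starts (57.7 to 62.7%). At the median or below, the FOXA1nhaa shares were 30.7% (26.3 to 35.4%) and 37.1% (34.6 to 39.7%), with intervals that overlap slightly. Above the median FOXA1dbd overlapped 34.9% (29.3 to 40.8%) and 27.3% (25.1 to 29.6%). At the median or below its shares were 10.3% and 11.4%, so FOXA1dbd had no steady order, whereas FOXA1nhaa was lower at high-CpG starts in both ranges of score.

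**Figure D4:**
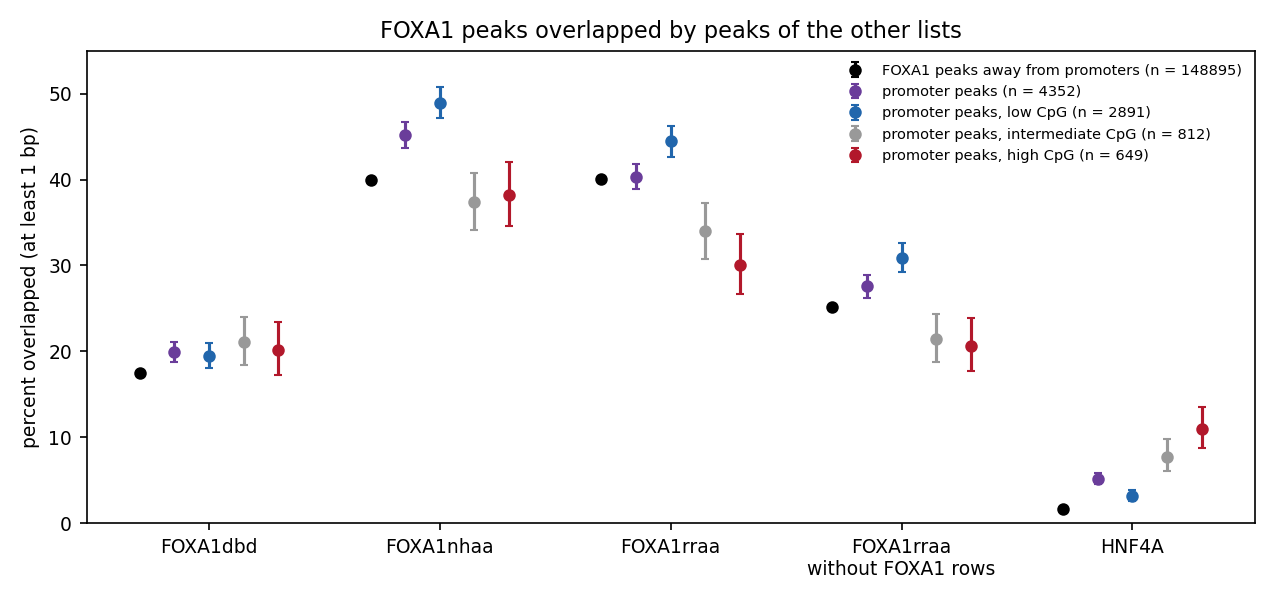
Percent of FOXA1 peaks sharing at least 1 bp with a peak of each other list (y axis), for peaks away from promoters and for promoter peaks in all and by CpG class, with 95% Wilson intervals. FOXA1nhaa runs from 48.95% at low-CpG to 38.2% at high-CpG starts, and HNF4A from 3.18% to 10.9%.

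Close to CpG-rich starts few peaks were shared with the variants, on small counts. Of 44 promoter peaks within 250 bp of a high-CpG start, 1 was overlapped by FOXA1dbd (interval 0.402 to 11.8%), 6 by FOXA1nhaa and 4 by FOXA1rraa, while 13 were overlapped by HNF4A (29.5%, 18.2 to 44.2%). Of the 725 within 250 bp of a low-CpG start, 384 (53.0%) were overlapped by FOXA1nhaa and 32 (4.41%) by HNF4A. Seen from the HNF4A list, FOXA1 overlapped 2.02% of HNF4A promoter peaks and 8.90% of its other peaks.

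Taking the lists in combination, 430 promoter peaks (9.88%) were overlapped by all 3 variants, against 8.28% of other FOXA1 peaks, and their median score was 218. No list overlapped 1571 (36.1%), against 40.8%, and their median score was 97. All 4 lists overlapped 38 (0.873%), against 0.421% of other FOXA1 peaks, and of these the peak at DUSP11 had the highest score, 671. The highest-scoring promoter peak overlapped by FOXA1dbd alone was at ZEB2, a repressor of epithelial genes, with a score of 431. For FOXA1nhaa alone it was at DLG1 (458), a membrane scaffold gene, for FOXA1rraa alone at SLC38A6 (525), a transporter gene, and for HNF4A alone at EPS15 (269), an endocytosis gene. The highest-scoring peak that no list overlapped was at CYLD (514), a deubiquitinase gene.

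AP-1 sites were more frequent in the promoter peaks shared with FOXA1dbd. AP-1 is the FOS and JUN family of factors, which is active in fibroblasts. Its site (TGAGTCA or TGACTCA) was in 292 promoter peaks (6.71%), against 7.98% of all FOXA1 peaks and 2.43% of start windows. It was in 12.7% of promoter peaks overlapped by FOXA1dbd and in 5.22% of the others, a difference of 7.48 points (5.28 to 9.96). Away from promoters the shares were 15.7% and 6.41%, so the same contrast was present in the rest of the list. With FOXA1nhaa the AP-1 shares were 7.32% and 6.21%, with overlapping intervals. The forkhead core differed less, at 21.1% with FOXA1dbd overlap and 18.2% without (2.89 points, -0.017 to 5.99).

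Genes with more annotated starts more often had a promoter peak. A gene counted when any of its starts had a peak, so more starts gave more space to count in by construction. The share was 16.4% over all genes, 6.57% of genes with 1 start, 13.8% with 2 to 4, 24.6% with 5 to 9 and 39.7% with 10 or more. At canonical starts alone, 7.53% of genes had a FOXA1 peak within 1000 bp, with 6.83% at high-CpG, 8.48% at intermediate and 7.60% at low-CpG starts. For HNF4A the share was 43.7%, with 64.8%, 46.3% and 6.80%. These shares come from lists of unequal length, 153247 FOXA1 and 37867 HNF4A peaks. With the down-sampled FOXA1 list, of 37683 peaks, the shares were 2.10%, 2.32% and 2.44%, below HNF4A in every class. By chromosome the share of genes with a FOXA1 promoter peak ran from 5.64% on chromosome 19 to 25.6% on chromosome 18. Chromosome 19 had 987 FOXA1 peaks and 1436 genes, and chromosome 18 had 4133 peaks and 262 genes. Of the FOXA1 peaks themselves, 7.80% on chromosome 19 and 2.71% on chromosome 18 were promoter peaks. Of the genes with promoter peaks, 2273 had 1 separate peak, and the most was 9, at the transcription factor gene MEF2C (31 starts) and at PPP1R12A (13 starts), which encodes a targeting subunit of myosin phosphatase. ATF7IP, with 20 starts, had 8, as did DST and PPARG. None of the 9 PPP1R12A peaks had the canonical start as its nearest start, although 1 lay at a start 363 bp from it, and their scores ran from 38 to 343. Starts of at least 2 genes lay within 1000 bp of 180 promoter peaks (4.14%), and for 142 of these the genes were on both strands.

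Among 19 gene lists, core histone genes had the highest share with a FOXA1 promoter peak. They encode the replication-dependent histones and lie in clusters, often head to head. Of 58 such genes, 25 had a promoter peak (43.1%, 31.2 to 55.9%), against 16.4% of all genes and 6.57% of genes with a single start, and all 25 had it at the canonical start, against 7.53% of all genes. The interval overlaps those of several other lists, the ribosomal protein, fibroblast and TGF-beta lists among them, so the order of the lists is not firm. The genes shared peaks, so that the 25 rested on 20 peaks, with a median score of 83 and a highest score of 259 at H2AC8. No FOXA1 variant overlapped 14 of the 20 (70%), against 37.9% of all promoter peaks, which had a higher median score (121). HNF4A overlapped none of the 20, against 5.19% of all promoter peaks, and so few peaks allow no reading of that difference. Core histone genes resemble each other in sequence, how reads mapping to several places were handled is not given in the sources used here, and its part in these peaks was not tested. Cytosolic ribosomal protein genes had a peak in 18 of 80 (22.5%, 14.7 to 32.8%), 13 of them at the canonical start, and the highest was at RPL7 (434), in an untranslated exon. Subunits of respiratory complex I had 7 of 35, with the highest score, 342, at NDUFB2.

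The fibroblast matrix and TGF-beta lists had intervals above the 16.4% of all genes, and those of the fibroblast transcription factor and collagen lists included it. At canonical starts the fibroblast matrix list had 11.8% and the TGF-beta list 9.68%, against 7.53% of all genes. Each of them had a median of 4 distinct starts. Among all genes the share was 13.8% with 2 to 4 starts and 24.6% with 5 to 9. Whether the number of starts accounts for the shares of these lists was not tested. Of 34 fibroblast matrix and surface genes, 11 had a promoter peak (32.4%, 19.1 to 49.2%), 4 of them at the canonical start. At DCN, which encodes the proteoglycan decorin, the highest peak had a score of 541, lay 37419 bp from the canonical start and was overlapped by all 3 variants. LUM, the gene of a related proteoglycan, had a peak of score 369 that no other list overlapped. MMP1, a collagenase gene, had a peak of score 198 with its midpoint 166 bp from the canonical start, and LOX, which encodes a collagen cross-linking enzyme, had a peak of score 319 whose midpoint lay 2020 bp from the canonical start. FOXA1dbd overlapped both. FOXA1dbd overlapped 12 of the 22 peaks of this list (54.5%), against 19.9% of all promoter peaks. These 22 peaks lay at only 11 genes, and their median score was 187.5, against 121 for all promoter peaks. Overlap by FOXA1dbd rose with score, to 38.1% of promoter peaks in the highest score quintile. In the TGF-beta pathway 10 of 31 genes had a peak (32.3%, 18.6 to 49.9%), 3 at the canonical start, among them INHBA (429), which encodes an activin subunit, and ID2 (230), a target gene. The type II receptor gene TGFBR2 had a peak of score 152 that no other list overlapped. Of 25 fibroblast transcription factor genes 5 had a peak (20%, 8.86 to 39.1%): SNAI2, ZEB2, RUNX1, RUNX2 and TEAD1. Collagen genes had 5 of 42 (11.9%, 5.19 to 25%), none at a canonical start, the highest at COL5A2 (268).

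Lists of genes from tissues where FOXA1 normally acts were mostly near the share over all genes. None of 24 liver and endoderm transcription factor genes had one (0 to 13.8%), a list that includes FOXA1, FOXA2 and HNF4A themselves. Of 29 genes for liver secreted proteins and enzymes 4 had one (13.8%), all at canonical starts, where the share over all genes was 7.53%: FABP1, a fatty acid binding protein (190), the fibrinogen chain gene FGB (136), the fetal serum protein gene AFP (67) and TDO2, an enzyme of tryptophan breakdown (62). Of 19 hormone response genes linked to FOXA1 in breast and prostate, 2 had one: AGR2 (365), overlapped by all 3 variants, and PGR (38). Epithelial junction genes had 2 of 25, among them MARVELD2 (151), claudins 4 of 22, and keratins 5 of 55, the highest at KRT10 (243). All of these intervals included the share over all genes, except that of the liver and endoderm transcription factors.

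The remaining lists were near or below the share over all genes. Olfactory receptor genes, mostly single-start and CpG-poor, had 8 of 389 (2.06%, 1.05 to 4.01%), and OR2F2, whose sequence is shown above, had the highest score, 578. Zinc finger genes named ZNF had 52 of 466 (11.2%, 8.61 to 14.3%), the highest, 364, near a start of ZNF821 and nearest a start of IST1. AP-1 subunit genes had 2 of 17 (ATF2 and MAFF), glycolysis genes 2 of 18 (PFKP and PKM), replication and mitosis genes 5 of 25 with the highest at AURKB (184), and neuronal genes 2 of 24 (LSAMP and DLG2).

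**Figure D5:**
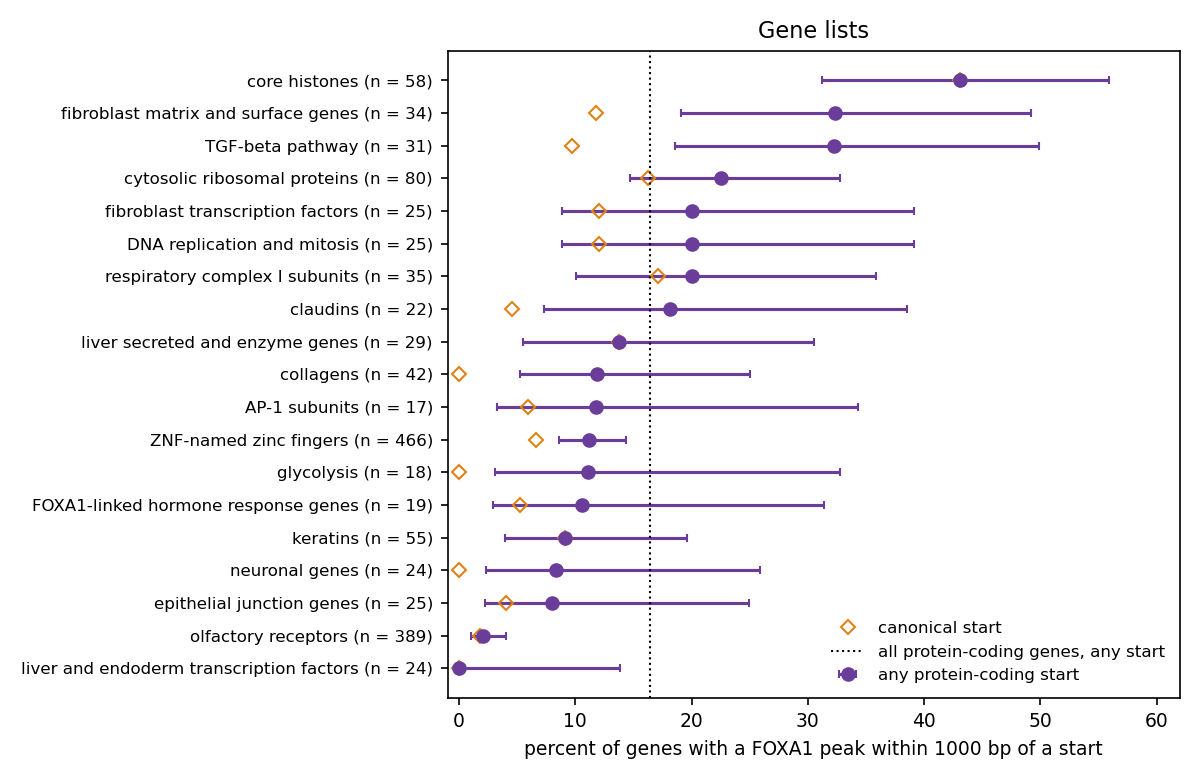
Percent of genes of each list with a FOXA1 peak within 1000 bp of any protein-coding start (filled, with 95% Wilson intervals) or of the canonical start (open), on the x axis, with the list size on the y axis. The dotted line is the share over all genes, 16.4%, and core histones (43.1%) lie farthest to the right.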

How the data were processed

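ChIP-seq peak lists of HALO-tagged constructs in BJ fibroblasts were used as the authors deposited them, 1 list per construct, grouped by sample title. The submitters' processing notes name Bowtie2 2.3.4.1, Picard, GATK 4.2.6.0, bedtools 2.27.1, MACS2 2.2.7.1, deepTools 3.5.0 and hg19, without roles or order. Whether replicates were pooled and how inputs were used is not given in the sources used here. In the deposited FOXA1 lists each peak has a score. For the other constructs the deposited values are a score, a fold enrichment (a ratio), a −log10 p-value and a −log10 q-value. Such values come from the authors and served to describe peaks and to take the upper 50% of each list. No list holds read counts, so the read depth is unknown and no detection limit can be given. H2B libraries were not analysed here.

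Rows with the same coordinates were counted once. Positions, sequence and genes came from GRCh37 and the lifted GENCODE 44 annotation, with Python 3.11.15, numpy 2.4.6, pandas 2.3.3 and scipy 1.17.1. Overlap required at least 1 bp. Motifs were searched in the central 200 bp around the midpoint, and density was counted in 200 bp windows assigned by their centre. The overlap, distance and motif steps were tested on simulated peaks. Of the promoter peaks, 57 were narrower than 50 bp, and 414 shared a peak name with another row.

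Named genes were the 10 highest-scoring promoter peaks, the highest in each CpG class, overlap class and gene list, and the 3 genes with most separate peaks. Other genes of a list were named to show its members after their values were seen, and DST and PPARG because they tied. Some genes that the rule picks are not reported here. Members and lists were chosen with earlier results of these data known. Alternatives were the distance to a start, canonical starts only, joined rows, the upper 50% of each list, stricter overlap, FOXA1rraa without FOXA1 rows, a looser CpG class and other motif settings.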

Additional observations from a re-analysis of the deposited data

How the results depend on the processing

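No paired analysis was possible because a single peak list, with no replicate number, stands for every construct. Leaving out a replicate was likewise not possible. Of 44 recomputed values 17 stayed within the interval of the reported value (counts within 1.5 times) and 27 moved. With a limit of 250 bp there were 903 promoter peaks at 823 genes, 4.87% at high-CpG starts, with 47.6% overlapped by FOXA1nhaa and 7.53% by HNF4A. With canonical starts only there were 1418 peaks at 1403 genes, 37% at high-CpG starts, with 37.2% overlapped by FOXA1nhaa, 33.3% by FOXA1rraa and 8.6% by HNF4A. In the upper 50% of each list there were 2097 peaks at 1684 genes, 12.4% at high-CpG starts, with 13.6% overlapped by FOXA1dbd, 33.9% by FOXA1nhaa, 35.9% by FOXA1rraa and 2.96% by HNF4A. Requiring 50% of the shorter peak gave 42.6% for FOXA1nhaa and 3.01% for HNF4A. Requiring midpoints within 200 bp gave 2.85% for HNF4A, 18.7% for FOXA1dbd, 35.3% for FOXA1rraa and 38.1% for FOXA1nhaa. FOXA1rraa without FOXA1 rows overlapped 27.6%. A ratio of 0.6 and a GC content of 50% put 25.7% at high-CpG starts. The central 100 bp held a forkhead core in 10.2%, a window that is shorter by construction. Joining rows of 1 peak name left 4129 peaks at 3052 genes. Fewer peaks or starts entered the first 3 of these settings by construction, and other causes were not tested. The unknown read depth limits all shares of overlap.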
